A study of Mus musculus with 6 samples.

Results

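Imprinted genes are the subject here: 40 mouse genes listed by name as members of imprinted loci, with earlier results of these data known. They were taken from 55450 genes counted in polyadenylated RNA of adult mouse cerebral cortex. Counts came from 3 libraries heterozygous for Setd5 and 3 wild type libraries. The labels describe the first group as Setd5 heterozygous and the second as wildtype, and they give no strain, age, sex or description of the Setd5 allele, so these are not stated here. The comparison asks whether transcripts of imprinted genes differ in cortex when Setd5, which encodes a SET-domain chromatin protein, is altered on a single copy. The members were chosen by name, matched to Ensembl identifiers through the GENCODE M21 annotation of GRCm38, and all 40 matched. By the parental allele known to be expressed, 15 are grouped as maternal, 23 as paternal and 2 (Grb10 and Ddc) as differing by tissue. They lie in 18 loci on 10 chromosomes, and 8 of them are annotated as noncoding.

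An imprinted gene is transcribed mainly from the allele inherited from a single parent. The choice is carried by DNA methylation laid down in the germ line at control regions and kept after fertilization by factors such as ZFP57, TRIM28 and DNMT1. Many imprinted genes sit in clusters in which a noncoding RNA is made from the allele whose protein-coding neighbours are silent. In the brain several of them are used in an unusual way. Ube3a, for example, is read from the maternal allele in neurons, where an antisense RNA runs over the paternal copy. Counts per gene add both alleles, so the allelic origin of the transcripts was not measured and the grouping is background knowledge. For Gnas, Blcap, Copg2, Trappc9 and Inpp5f the imprint concerns some transcripts or is a bias between alleles, and the count per gene adds all transcripts.

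The promoter windows of 6 members whose arrangement matters for the values below are printed here, each from 250 bases before to 50 after the start, 5′ to 3′ on the gene's strand (RefSeq, GRCm38.p6). Meg3 (chr12:109540746-109541045), Rian (chr12:109603695-109603994) and Mirg (chr12:109734731-109735030) follow each other on the plus strand, and their windows hold 13, 0 and 10 CG dinucleotides. The RefSeq start of Mirg lies inside the longer gene of the GENCODE annotation used for counts. The Mirg window itself holds mature miR-668-5p, miR-668-3p and miR-485-3p, so it lies within the transcribed unit and not upstream of it. Peg3 (chr7:6730370-6730669, minus strand) and Usp29 (chr7:6730333-6730632, plus strand) start on opposite strands, and their windows share 263 bp. Nap1l5 (chr6:58907077-58907376, minus strand) lies inside an intron of Herc3. Capitals mark the hexamer TGCCGC, which ZFP57 binds in its methylated form, on either strand.
Meg3: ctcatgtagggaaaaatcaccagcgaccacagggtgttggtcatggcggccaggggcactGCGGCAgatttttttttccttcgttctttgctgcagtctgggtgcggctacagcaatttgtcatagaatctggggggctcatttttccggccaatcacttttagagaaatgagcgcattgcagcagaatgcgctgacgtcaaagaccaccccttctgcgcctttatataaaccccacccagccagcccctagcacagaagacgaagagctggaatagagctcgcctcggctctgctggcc
Rian: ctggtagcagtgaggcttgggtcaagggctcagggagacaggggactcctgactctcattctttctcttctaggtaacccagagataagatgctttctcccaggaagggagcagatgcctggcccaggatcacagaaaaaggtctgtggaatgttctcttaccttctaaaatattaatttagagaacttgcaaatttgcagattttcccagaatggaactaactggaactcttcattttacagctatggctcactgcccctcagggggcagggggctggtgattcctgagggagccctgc
Mirg: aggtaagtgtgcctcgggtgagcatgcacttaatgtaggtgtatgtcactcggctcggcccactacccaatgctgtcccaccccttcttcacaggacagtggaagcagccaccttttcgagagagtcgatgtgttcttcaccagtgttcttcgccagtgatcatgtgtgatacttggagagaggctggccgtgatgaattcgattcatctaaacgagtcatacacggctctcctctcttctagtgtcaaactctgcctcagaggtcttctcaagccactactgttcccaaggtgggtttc
Peg3: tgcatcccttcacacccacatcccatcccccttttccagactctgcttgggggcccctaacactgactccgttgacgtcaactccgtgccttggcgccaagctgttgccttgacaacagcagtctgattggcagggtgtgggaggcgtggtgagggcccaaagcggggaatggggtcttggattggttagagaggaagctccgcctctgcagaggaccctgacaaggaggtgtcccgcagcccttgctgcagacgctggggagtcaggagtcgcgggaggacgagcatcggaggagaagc
Usp29: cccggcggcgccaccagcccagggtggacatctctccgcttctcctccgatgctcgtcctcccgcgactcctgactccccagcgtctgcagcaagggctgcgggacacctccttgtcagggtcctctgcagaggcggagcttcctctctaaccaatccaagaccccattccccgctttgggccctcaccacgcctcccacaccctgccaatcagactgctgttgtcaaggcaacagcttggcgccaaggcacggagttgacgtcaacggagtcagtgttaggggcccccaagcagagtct
Nap1l5: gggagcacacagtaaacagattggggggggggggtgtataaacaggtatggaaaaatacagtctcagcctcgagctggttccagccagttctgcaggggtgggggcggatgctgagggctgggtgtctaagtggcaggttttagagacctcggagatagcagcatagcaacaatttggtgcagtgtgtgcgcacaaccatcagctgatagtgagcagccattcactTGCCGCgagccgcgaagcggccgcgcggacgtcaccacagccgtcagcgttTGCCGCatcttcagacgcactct
Promoter windows were found for 31 of the members (45 windows, some genes having several). The window of Mirg, inside its transcribed unit, is among them. The hexamer was in 13 of the 45, or 28.9%, against 11.6% of the 32851 windows of all genes, and the member windows held a median of 13 CG dinucleotides against 7. The windows are not independent, since Snrpn and Snurf have 1 identical window that is counted for both, and 2 windows of Mest overlap almost wholly, each with the hexamer. The hexamer itself contains a CG, so windows rich in CG hold it more often. The upstream of 2 windows of Zdbf2 held 3 matches, and 1 window of Calcr, the window of Nap1l5 and 2 overlapping windows of Mest held 2 each.

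The libraries held 82850628 to 92860628 counts, and the members took 0.816% to 0.824% of them in heterozygous and 0.69% to 0.892% in wild type libraries. Setd5 itself was at 69.5, 68.7 and 75.3 CPM (counts scaled to library size) in heterozygous libraries 1 to 3, against 111, 97.0 and 108 CPM in wild type libraries 1 to 3, in the direction of the labels (log2 difference -0.56, SE 0.07, edgeR adjusted p = 0.258). Xist, the RNA of the inactive X chromosome, was at 865 CPM in heterozygous replicate 3 and 784 CPM in wild type replicate 3 and under 1 CPM in the other 4. Wild type replicate 3 stood apart on the first principal component. The 10 striatal markers summed to 378, 504 and 818 CPM in heterozygous libraries 1 to 3, against 304, 500 and 1878 CPM in wild type libraries 1 to 3. The 16 meningeal markers summed to 478 to 520 CPM in heterozygous libraries, against 709, 839 and 474 CPM in wild type libraries 1 to 3. Of the 9 oligodendrocyte markers 9 had a log2 difference above 0 (49.9% of all genes). Of the 9 microglial markers 9 and of the 9 pericyte markers 8 had a log2 difference below 0 (50.1% of all genes). The part of these cell types in the results was not tested. Cortical neuron markers were present in every library, between 7508 and 8846 CPM. The title of wild type replicate 3 has another form than the rest, and its group rests on the genotype label. Whether each library is a different animal is not in the labels, so the p-values measure the spread between libraries, which may be technical. In bulk tissue, fewer cells of a type and less RNA per cell cannot be told apart.

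Levels were set per kilobase of merged exons (CPM per kb). Nap1l5, a paternally expressed retrogene of the nucleosome assembly family, had 259.8 CPM per kb in heterozygous and 232 CPM per kb in wild type cortex. The maternal noncoding RNA Meg3 stood beside it, at 243 CPM per kb in heterozygous and 222 CPM per kb in wild type cortex, less apart than the spread between libraries. Snurf came next in rank, but all 216 bp of its annotated exons lie within Snrpn and the gene model Gm38393, so its reads are uncertain. Gnas, which encodes the stimulatory G protein alpha subunit, Impact, a regulator of translation under stress, and Snrpn, a spliceosomal protein gene, followed between 52.6 and 62.9 CPM per kb in either group. In all 17 members averaged at least 10 CPM per kb, 13 lay between 1 and 10, and 10 were under 1. Among the lowest were Dlk1, Magel2 and Asb4. Calcr, the calcitonin receptor, had 2, 6 and 2 counts in heterozygous and 0, 5 and 6 counts in wild type libraries. Phlda2, a growth-limiting gene of the placenta, had 2 counts in heterozygous replicate 3 and 0 in the other 5 libraries, and a count of 0 allows up to 0.0323 to 0.0362 CPM, by counting error only. These 2 genes did not pass the filter on low counts, so 38 members were tested.

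**Figure D1:**
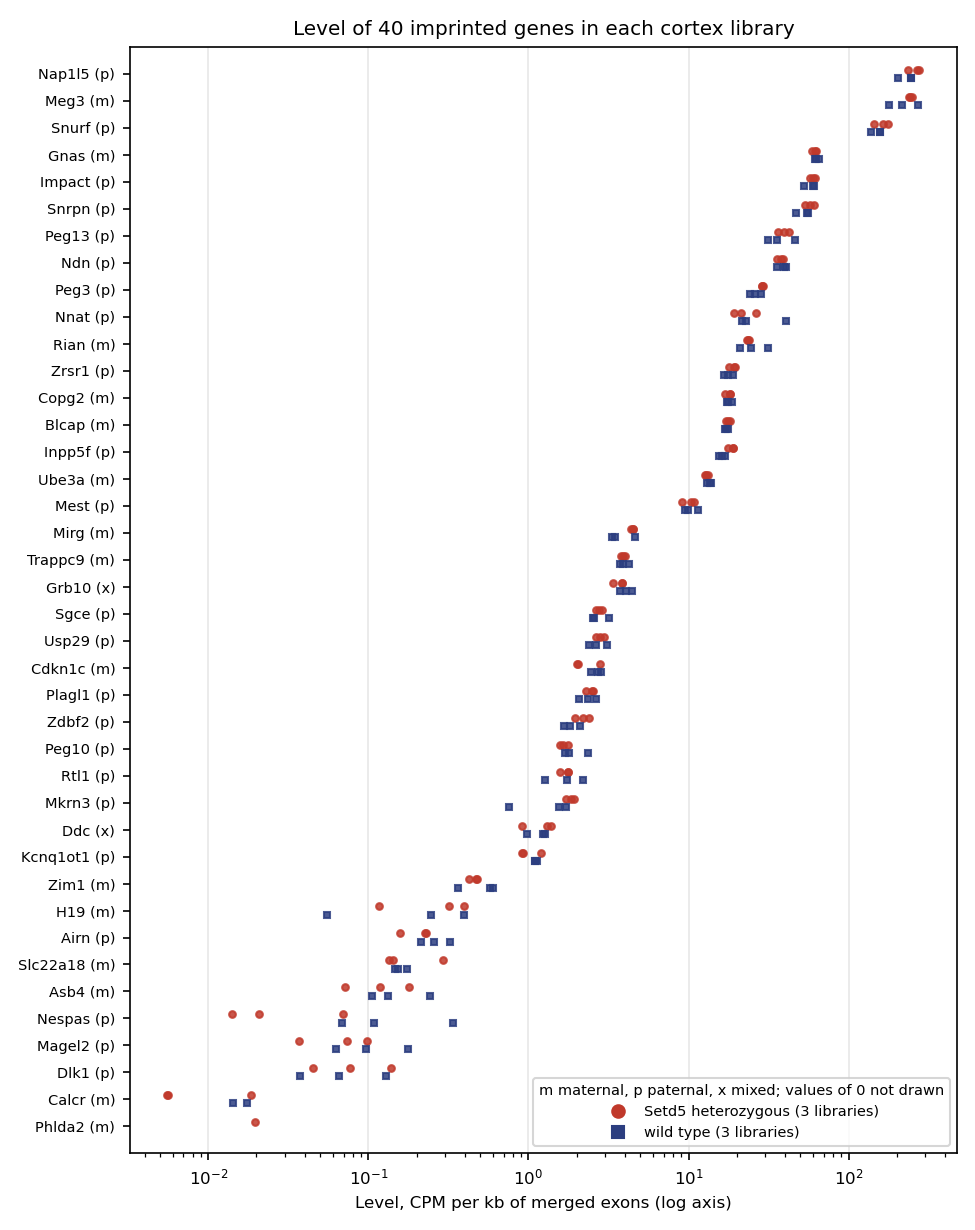
Level of the 40 imprinted genes in each library, in CPM per kb of merged exons on a log axis, ordered by mean, with heterozygous libraries as red circles and wild type libraries as blue squares; values of 0 are not drawn. For most genes the 2 groups lie on top of each other, and the spread widens for genes under 1 CPM per kb.

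No member passed the test between genotypes, and most differences were small. In edgeR's quasi-likelihood test, Benjamini-Hochberg adjusted over 27939 genes, 0 of the 38 tested members were called higher or lower, where 0% of all genes tested were called in either direction. DESeq2 also called 0 members (0.0648% of genes higher and 0.186% lower). At an unadjusted p under 0.05 edgeR had 2 members, Inpp5f above and Nespas below wild type, against 5.83% of all genes (2.44% above and 3.38% below), and DESeq2 had 3, these and Zdbf2, against 5.56%. For 3 members each heterozygous library lay above each wild type library (5.88% of all genes), and for 0 the reverse held (5.85%). The log2 difference lay above 0 for 19 of the 38 and below 0 for 19, against 49.9% and 50.1% of all genes. Its median was -0.023 for the 13 maternal members tested, 0.055 for the 23 paternal members and -0.00053 for all genes. Adjusted p-values of the members ran from 0.804 to 0.995 in edgeR. Of the 27 members averaging at least 10 CPM, 23 differed by under 0.2 on the log2 scale, with standard errors from 0.06 to 0.22. The 7 tested members under 1 CPM had standard errors from 0.26 to 0.73, wider than those of the abundant members.

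**Figure D2:**
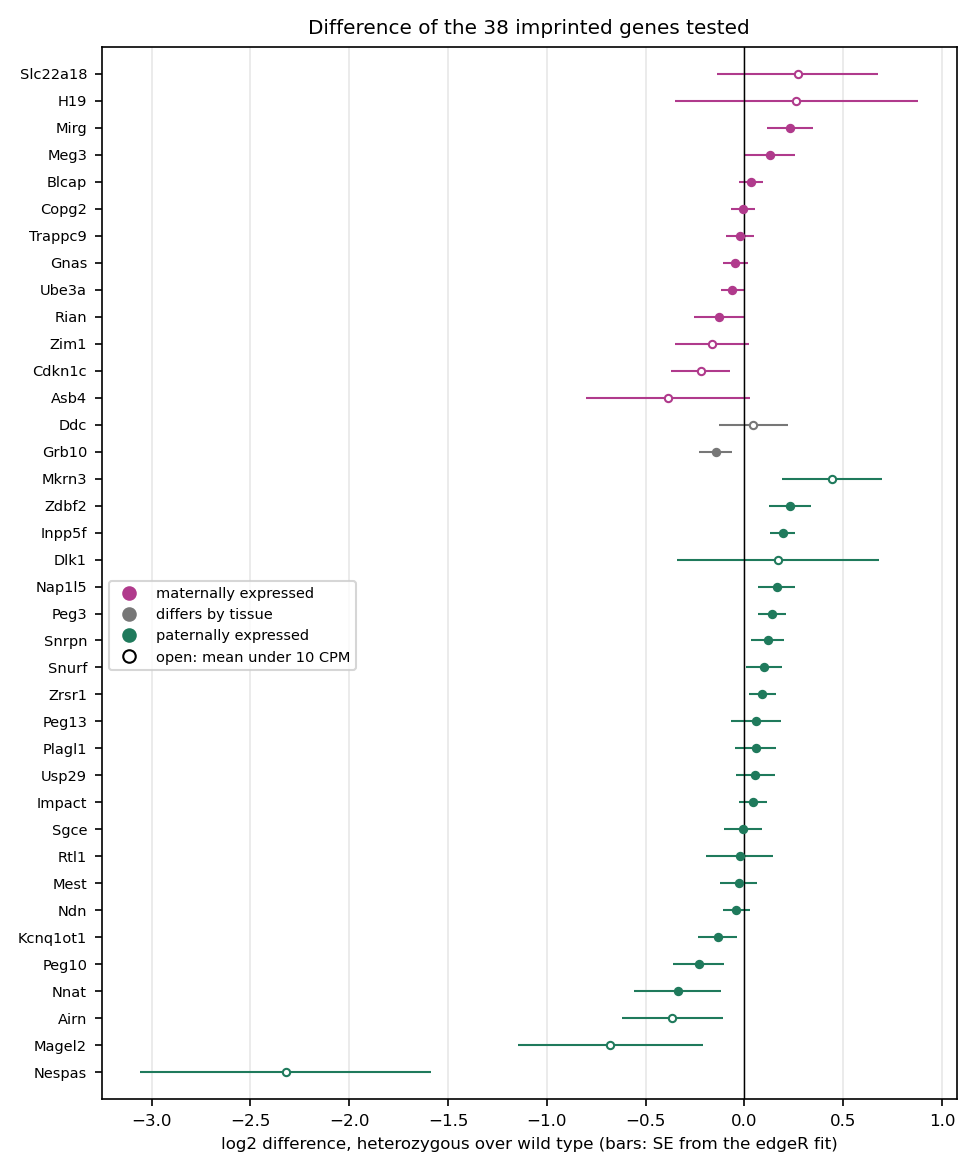
Log2 difference of each tested imprinted gene, heterozygous over wild type, with bars of 1 SE from the edgeR fit, grouped by the allele known to be expressed; open symbols average under 10 CPM. Most filled symbols lie within 0.2 of 0, while Nespas, at -2.32 with an SE of 0.73, lies far out on few counts.

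The maternal RNAs of the Dlk1-Dio3 locus on chromosome 12 overlapped between genotypes in level, while the ratios of Meg3 to Rian and of Rian to Mirg did not. Meg3, Rian and Mirg are long noncoding RNAs read in the same direction from the maternal chromosome, and Rian and Mirg carry snoRNAs and microRNAs in their bodies. Meg3 (109541001 to 109571726, GRCm38) was at 4352, 4306 and 4511 CPM in heterozygous libraries 1 to 3, against 4892, 3247 and 3887 CPM in wild type libraries 1 to 3. Rian (109603940 to 109661716) was at 432, 432 and 422 CPM in heterozygous libraries, against 574, 382 and 450.4 CPM in wild type libraries. Mirg (109729764 to 109749460) was at 31.9, 32.7 and 32.8 CPM in heterozygous libraries, against 33.6, 24.3 and 25.2 CPM in wild type libraries. For all 3 RNAs the heterozygous libraries were close together and lay between the extremes of the wild type libraries, of which replicate 1 was highest and replicate 2 lowest. The log2 differences were 0.13 for Meg3 (SE 0.13), -0.13 for Rian (SE 0.13) and 0.23 for Mirg (SE 0.12), with edgeR adjusted p of 0.907, 0.909 and 0.864. Without wild type replicate 1 these were 0.30, 0.044 and 0.39, and without wild type replicate 2 they were -0.0041, -0.26 and 0.14.

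Set against each other within a library, Meg3 to Rian and Rian to Mirg gave ratios that separated the genotypes. Both ratios contain Rian, so they are not independent, and the ratio of Meg3 to Mirg was not among those computed. The ratio of Meg3 to Rian, per kb of exons, was 10.2, 10.1 and 10.8 in heterozygous libraries 1 to 3, against 8.59, 8.57 and 8.70 in wild type libraries 1 to 3. It stayed within that narrow range in wild type cortex although the level of Meg3 itself differed between replicates 1 and 2. The ratio of Rian to Mirg was 5.41, 5.27 and 5.15 in heterozygous libraries, against 6.84, 6.29 and 7.14 in wild type libraries. These ratios do not depend on how the libraries are scaled. On the log2 scale the Meg3 to Rian ratio averaged 3.37 ± 0.053 in heterozygous and 3.11 ± 0.012 in wild type cortex (SD, n = 3 each), a difference of 0.26. The Rian to Mirg ratio averaged 2.40 ± 0.036 in heterozygous and 2.75 ± 0.093 in wild type cortex (SD, n = 3 each), a difference of -0.35. Leaving out any 1 library kept the first between 0.23 and 0.28 and the second between -0.41 and -0.31, and without the 2 libraries with high Xist they were 0.24 and -0.30. Two-sided exact permutation tests gave p = 0.1 for each, the smallest that 3 libraries against 3 can give, and 0.367 after adjustment over the 11 ratios of neighbouring members computed. Of those 11 ratios 3 had groups that did not overlap. Among 18957 pairs of consecutive genes with at least 1 CPM, 12.3% did so. The sets are unlike, since some of the 11 ratios include Dlk1, Magel2 or Nespas, which averaged under 1 CPM. Some also pair genes that are not consecutive, as Rtl1 lies between Meg3 and Rian. Immediate early genes, which follow neuronal activity, had a log2 difference above 0 in 18 of 18 listed genes (49.9% of all genes). That list was chosen with earlier results of these data known. The immediate early genes summed to 1747, 1693 and 1013 CPM in heterozygous libraries, against 1274, 834 and 701 CPM in wild type libraries. The sums overlapped, and their part in the ratios was not tested.

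**Figure D3:**
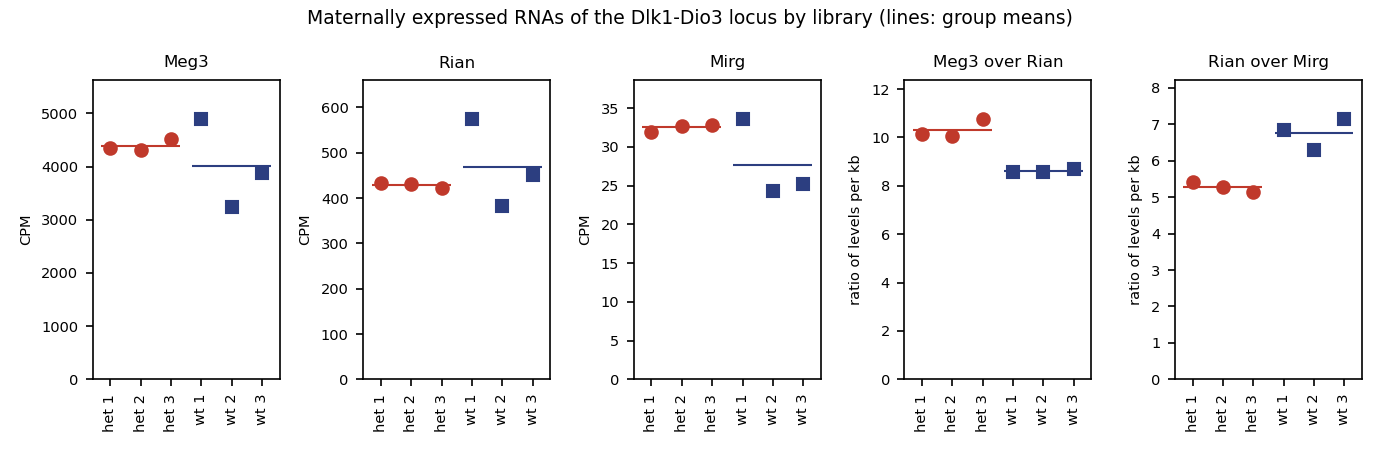
Left to right, CPM of Meg3, Rian and Mirg and the ratios Meg3 over Rian and Rian over Mirg per kb of exons, by library, with lines at group means. The levels overlap between heterozygous and wild type libraries, while the Meg3 to Rian ratio is above 10 in each heterozygous library and below 8.8 in each wild type library.

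Small RNA genes inside these hosts were also in the count tables, and of the 49 genes tested between Dlk1 and Mirg 28 lay above and 21 below wild type. At an unadjusted p under 0.05 there were 3 of the 49, where 5.83% of all genes were, and they are named here after their values were seen. Mir453, a microRNA hairpin in the Mirg transcription unit, was at 0.424, 0.752 and 0.769 CPM in heterozygous libraries (39, 62 and 70 counts), against 0.355, 0.258 and 0.170 CPM in wild type libraries (30, 23 and 15 counts). The groups did not overlap, with a log2 difference of 1.31 (SE 0.38) and an edgeR adjusted p of 0.789. Gm23508, a snoRNA inside an exon of Rian, had 28, 13 and 53 counts in heterozygous libraries and 192, 26 and 124 counts in wild type libraries (log2 difference -1.91, SE 0.66, edgeR adjusted p = 0.828). Gm26945, a long noncoding RNA, was at 11.3, 11.4 and 10.7 CPM in heterozygous libraries, against 9.82, 9.67 and 7.67 CPM in wild type libraries. Reads on such genes in polyadenylated RNA come from precursors or host transcripts, so mature small RNAs were not measured. RefSeq places 26 mature microRNAs in Mirg, 6 in Rian and 3 in Meg3. Among these 35 a seed is shared only by miR-453 and miR-496a-5p, printed with the seed (bases 2 to 8) in capitals.
mmu-miR-453: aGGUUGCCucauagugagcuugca
mmu-miR-496a-5p: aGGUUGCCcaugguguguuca
The paternally expressed genes of the locus showed no separation. Rtl1, a retrotransposon-derived gene antisense to other microRNAs of the locus, averaged 10.8 ± 0.732 CPM in heterozygous cortex, against 11.01 ± 2.895 CPM in the wild type (SD, n = 3 each). Dlk1, a membrane-bound Notch ligand relative, was at 0.49 ± 0.267 CPM in heterozygous cortex, against 0.436 ± 0.263 CPM in the wild type (SD, n = 3 each).

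At the Peg3 locus on chromosome 7, the paternally expressed zinc finger gene Peg3 was slightly above wild type in each heterozygous library. It was at 382, 389 and 384 CPM in heterozygous libraries 1 to 3, against 380.0, 324 and 344 CPM in wild type libraries 1 to 3. The gap between the groups was small, since wild type replicate 1 lay just below the heterozygous libraries. The log2 difference was 0.14 (SE 0.07, edgeR adjusted p = 0.864), and 0.085 without wild type replicate 2. Usp29, a ubiquitin protease gene that shares the divergent promoter printed above, averaged 50.7 ± 3.09 CPM in heterozygous cortex, against 48.8 ± 6.65 CPM in the wild type (SD, n = 3 each), and its groups overlapped. Zim3, annotated antisense to Usp29, covers 14.3% of the exon bases of Usp29, so reads there cannot be assigned without strand. Zim1, a maternally expressed zinc finger gene of the locus, was at 3.71 ± 0.224 CPM in heterozygous cortex, against 4.16 ± 1.06 CPM in the wild type (SD, n = 3 each).

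The Snrpn-Ube3a locus, which corresponds to the human Prader-Willi and Angelman region, had closely matched levels for its abundant members. Ube3a, a ubiquitin ligase, was at 266, 262 and 272 CPM in heterozygous libraries, against 280.3, 285 and 270.3 CPM in wild type libraries. Heterozygous replicate 3 lay above wild type replicate 3, so the groups overlapped, and the log2 difference was -0.06 (SE 0.06). Snhg14, the long antisense host RNA that silences the paternal copy of Ube3a in neurons, averaged 177 ± 7.33 CPM in heterozygous cortex, against 179.9 ± 7.28 CPM in the wild type (SD, n = 3 each). Genes annotated on the opposite strand, Snhg14 among them, cover 27.3% of Ube3a exon bases. Snrpn was at 124, 131 and 115 CPM in heterozygous libraries, against 120.0, 119 and 101 CPM in wild type libraries. Snurf, whose reading frame lies on the same transcript, was at 35.5, 37.95 and 31.1 CPM in heterozygous cortex, against 34.1, 33.8 and 29.8 CPM in wild type libraries. Both groups overlapped, and the log2 differences were 0.12 (SE 0.08) for Snrpn and 0.098 (SE 0.09) for Snurf. Ndn, which encodes the MAGE family protein necdin, was at 138 ± 5.59 CPM in heterozygous cortex, against 142 ± 9.45 CPM in the wild type (SD, n = 3 each). Its intronless neighbour and relative Magel2 was scarce, at 0.322 ± 0.144 CPM in heterozygous cortex, against 0.519 ± 0.269 CPM in the wild type (SD, n = 3 each).

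Mkrn3, a paternally expressed ubiquitin ligase gene known as a brake on puberty in humans, had groups that did not overlap. It was at 4.67, 4.38 and 4.89 CPM in heterozygous libraries, against 4.35, 3.98 and 1.93 CPM in wild type libraries. Wild type replicate 3 set most of the difference. The log2 difference was 0.44 (SE 0.25, edgeR adjusted p = 0.866), and 0.16 without that library. Of the 37 genes tested between Ube3a and Mkrn3, 19 lay above and 18 below wild type.

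Nespas, the paternally expressed antisense RNA of the Gnas locus on chromosome 2, was the member with the largest difference. It had 6, 18 and 4 counts in heterozygous libraries 1 to 3, against 29, 95 and 19 counts in wild type libraries 1 to 3. Those are 0.0653, 0.218 and 0.0439 CPM in heterozygous libraries, against 0.343, 1.07 and 0.215 CPM in wild type libraries. Heterozygous replicate 2 and wild type replicate 3 were about equal, and wild type replicate 2 stood far above the rest. The log2 difference was -2.32 (SE 0.73, unadjusted p = 0.0109, edgeR adjusted p = 0.804), and -1.37 without wild type replicate 2. DESeq2 gave an unadjusted p of 0.000988 and an adjusted p of 0.164. Wild type replicate 2 also had the highest meningeal marker sum, and the part of that tissue in the Nespas level was not tested. Exons of Gnas cover 31.4% of the Nespas exon bases on the opposite strand. Gnas was at 702, 685 and 657 CPM in heterozygous libraries, against 696, 725 and 689 CPM in wild type libraries. Its groups overlapped (log2 difference -0.05, SE 0.06).

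Inpp5f, which encodes a phosphoinositide phosphatase of endosomes, was above wild type in each heterozygous library. It lies on chromosome 7 from 128611328 to 128696425 on the plus strand. It was counted at 159, 158 and 146 CPM in heterozygous libraries 1 to 3, against 129, 141 and 134 CPM in wild type libraries 1 to 3. The groups did not overlap, with means of 154 ± 6.77 CPM in heterozygous cortex, against 135 ± 6.10 CPM in the wild type (SD, n = 3 each). The log2 difference was 0.19 (SE 0.06, unadjusted p = 0.0144, edgeR adjusted p = 0.828), and leaving out any 1 library kept it between 0.16 and 0.23. The paternally expressed transcript of this gene starts inside it, and the count per gene adds it to the longer transcript read from both alleles. Zdbf2, a paternally expressed zinc finger gene, was at 30.3, 27.9 and 24.6 CPM in heterozygous libraries, against 26.5, 21.2 and 22.9 CPM in wild type libraries. Its groups overlapped through heterozygous replicate 3 and wild type replicate 1, and the log2 difference was 0.23 (SE 0.10, edgeR adjusted p = 0.855).

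**Figure D4:**
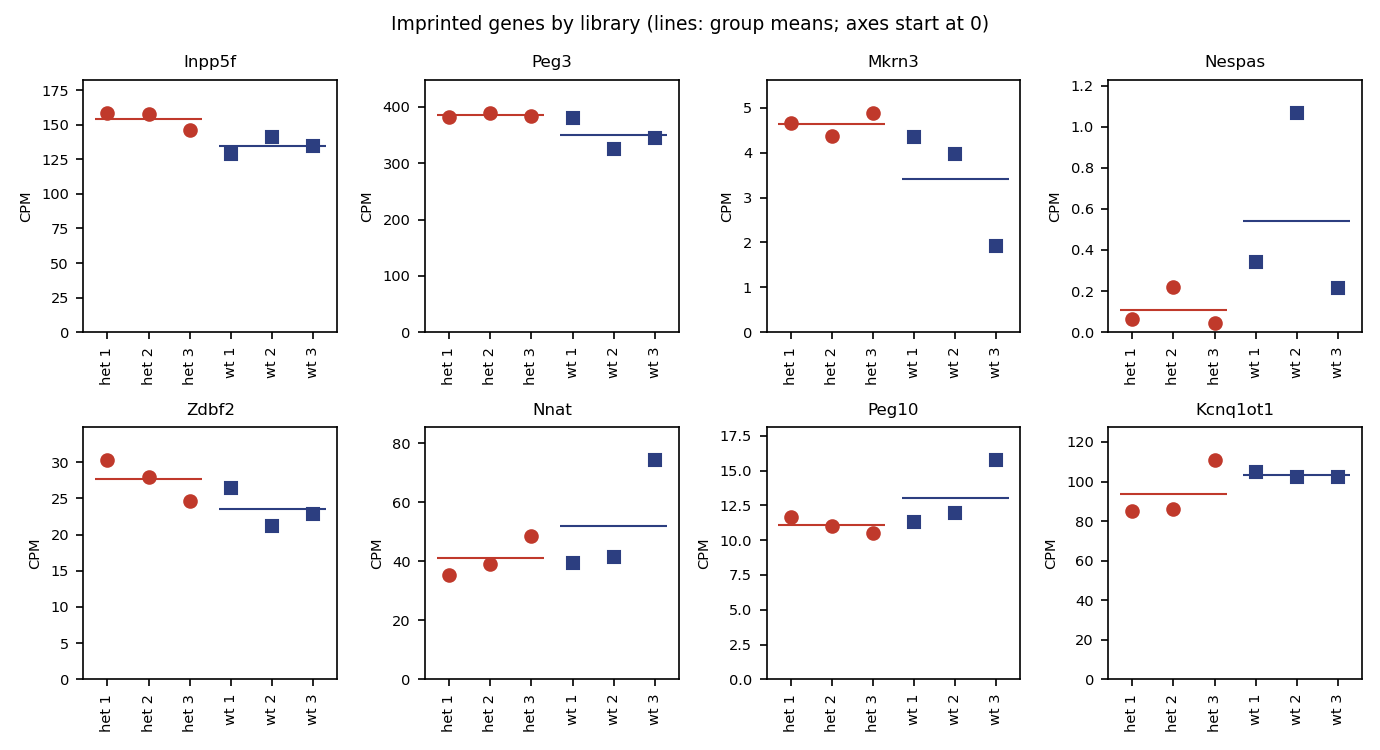
CPM of 8 imprinted genes in each library, heterozygous as red circles and wild type as blue squares, with lines at group means and axes from 0. Inpp5f, Peg3 and Mkrn3 have groups that do not overlap, and single wild type libraries stand out for Nespas (replicate 2), Mkrn3, Nnat and Peg10 (replicate 3).

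Some imprinted genes that lie inside other genes were compared with their hosts. Nap1l5 was at 479 ± 39.99 CPM in heterozygous cortex, against 428 ± 45.6 CPM in the wild type (SD, n = 3 each), 0.16 apart on the log2 scale (SE 0.09). Its host Herc3 was at 224 ± 13.4 CPM in heterozygous cortex, against 203 ± 17.0 CPM in the wild type (SD, n = 3 each), and differed by 0.14 on the log2 scale (SE 0.08). Gene and host were thus both above wild type on average, and both overlapped. Zrsr1, a splicing factor retrogene, was at 84.9 ± 3.46 CPM in heterozygous cortex, against 79.7 ± 4.91 CPM in the wild type (SD, n = 3 each). Its host Commd1, a copper homeostasis gene that shares 412 bp of exons with it on the other strand, was at 35.9 ± 1.24 CPM in heterozygous cortex, against 36.2 ± 2.69 CPM in the wild type (SD, n = 3 each). Peg13, a noncoding RNA within an intron of Trappc9, was at 201, 185 and 171 CPM in heterozygous libraries, against 149, 168 and 218 CPM in wild type libraries, and the groups overlapped widely. Trappc9, a vesicle trafficking gene, was at 30.9 ± 0.767 CPM in heterozygous cortex, against 31.4 ± 2.07 CPM in the wild type (SD, n = 3 each).

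Around Peg10, Mest and Nnat the members differed little or followed wild type replicate 3. Sgce, a sarcoglycan gene, was at 28.0, 29.2 and 30.5 CPM in heterozygous libraries, against 27.1, 27.0 and 33.9 CPM in wild type libraries. Its divergent neighbour Peg10, a gene of retrotransposon origin, was at 11.7, 11.03 and 10.5 CPM in heterozygous libraries, against 11.3, 11.9 and 15.8 CPM in wild type libraries. The log2 difference of Peg10 was -0.23 (SE 0.13), and -0.07 without wild type replicate 3. The ratio of Sgce to Peg10 per kb was 1.51, 1.66 and 1.82 in heterozygous libraries, against 1.504, 1.42 and 1.35 in wild type libraries, with a gap of only 0.002 between the nearest libraries. Asb4, an ankyrin repeat gene, was under 1 CPM in every library. Mest, a hydrolase-like gene of mesoderm, was at 42.7, 40.6 and 36.0 CPM in heterozygous libraries, against 38.9, 45.5 and 37.4 CPM in wild type libraries. Copg2, a coatomer gene on the opposite strand that shares 912 bp of exons with Mest, was at 93.1, 93.5 and 86.9 CPM in heterozygous cortex, against 88.7, 96.1 and 89.8 CPM in wild type libraries. Both overlapped, with log2 differences of -0.028 (SE 0.09) for Mest and -0.0061 (SE 0.06) for Copg2. Blcap was at 52.0, 55.3 and 53.6 CPM in heterozygous libraries, against 51.7, 52.3 and 53.3 CPM in wild type libraries. Nnat, which encodes the small membrane protein neuronatin and lies within an intron of Blcap, was at 35.3, 39.0 and 48.6 CPM in heterozygous libraries, against 39.6, 41.6 and 74.3 CPM in wild type libraries. Wild type replicate 3, the library with the highest striatal markers, set the Nnat difference, which was -0.34 (SE 0.22) and 0.015 without it. The part of striatal tissue in the levels of Nnat and Peg10 was not tested.

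In the distal chromosome 7 clusters the growth-restraining genes were low in cortex. Kcnq1ot1, the long noncoding RNA that silences its neighbours on the paternal chromosome, was at 84.9, 85.9 and 111 CPM in heterozygous libraries, against 105, 102 and 102 CPM in wild type libraries. Heterozygous replicate 3, a library with high Xist, was the highest of all, and the log2 difference was -0.13 (SE 0.10), or -0.28 without the 2 libraries with high Xist. Cdkn1c, a cyclin-dependent kinase inhibitor with 30.7% of its exon bases under the antisense gene Gm44732, was at 4.66 ± 0.915 CPM in heterozygous cortex, against 5.43 ± 0.413 CPM in the wild type (SD, n = 3 each). Slc22a18, an organic cation transporter, was at 0.322 ± 0.15 CPM in heterozygous cortex, against 0.267 ± 0.0245 CPM in the wild type (SD, n = 3 each). H19, a maternal noncoding RNA that is abundant before birth, was at 0.979, 0.788 and 0.286 CPM in heterozygous libraries, against 0.970, 0.607 and 0.136 CPM in wild type libraries. The lowest H19 library of each genotype was replicate 3, the library with high Xist.

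Of the remaining members none had groups that separated. Grb10, an adaptor that restrains insulin signalling and is read from the paternal allele in neurons and the maternal allele in most other tissues, was at 30.8, 34.7 and 34.8 CPM in heterozygous libraries, against 40.2, 36.8 and 34.1 CPM in wild type libraries (log2 difference -0.15, SE 0.08). Ddc, the decarboxylase that makes dopamine and serotonin, was at 5.35 ± 1.12 CPM in heterozygous cortex, against 5.18 ± 0.723 CPM in the wild type (SD, n = 3 each). Impact was at 305 ± 11.6 CPM in heterozygous cortex, against 296 ± 21.8 CPM in the wild type, and Plagl1, a zinc finger transcription factor, at 19.1 ± 1.07 CPM in heterozygous cortex, against 18.4 ± 2.304 CPM in the wild type (SD, n = 3 each). Airn, the antisense RNA of the Igf2r locus, was at 0.737 ± 0.144 CPM in heterozygous cortex, against 0.951 ± 0.206 CPM in the wild type (SD, n = 3 each), and Igf2r at 22.9 ± 1.52 CPM in heterozygous cortex, against 24.7 ± 1.43 CPM in the wild type (SD, n = 3 each).

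A further list of 40 imprinted or allele-biased genes outside the members was examined for context. Of these 39 matched an identifier and 37 were tested, 0 were called by edgeR or DESeq2, 1 lay above and 2 below wild type at an unadjusted p under 0.05 (2.44% and 3.38% of all genes), and groups did not overlap for 4 above and 2 below (5.88% and 5.85% of all genes). Klf14, a maternally expressed transcription factor gene, was at 0.566, 0.740 and 0.703 CPM in heterozygous libraries, against 0.355, 0.337 and 0.295 CPM in wild type libraries. The groups were well apart, with a log2 difference of 1.02 (SE 0.27, unadjusted p = 0.00424, edgeR adjusted p = 0.789), and leaving out any 1 library kept it between 0.95 and 1.13. Igf2, a growth factor gene reciprocal to H19 and made in the adult brain mainly by its coverings, was at 50.6, 41.5 and 44.8 CPM in heterozygous libraries, against 65.8, 91.1 and 44.8 CPM in wild type libraries. Meningeal fibroblast markers followed the same order among wild type libraries, with 709, 839 and 474 CPM in libraries 1 to 3. Of the 16 markers 15 had a log2 difference below 0 (50.1% of all genes). The log2 difference of Igf2 was -0.56 (SE 0.21, edgeR adjusted p = 0.831), and -0.28 without wild type replicate 2. The part of meningeal tissue in it was not tested. Phactr2 was at 15.5, 12.2 and 12.8 CPM in heterozygous libraries, against 14.3, 15.6 and 29.2 CPM in wild type libraries, and its log2 difference of -0.55 (SE 0.24) was -0.15 without wild type replicate 3.

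Genes that set or keep imprints were measured as well. Of 25 such genes 22 were tested and 0 were called by edgeR or DESeq2, with 16 above and 6 below wild type in log2 difference (49.9% and 50.1% of all genes), a median of 0.07, and 1 at an unadjusted p under 0.05 (5.83% of all genes). That gene was Tet3, an enzyme that oxidizes methylated cytosine, at 81.5, 76.6 and 67.7 CPM in heterozygous libraries, against 70.4, 57.2 and 53.2 CPM in wild type libraries. Its groups overlapped through heterozygous replicate 3 and wild type replicate 1, and the log2 difference was 0.32 (SE 0.11, edgeR adjusted p = 0.828). Groups did not overlap for 2 of the 22 above and 0 below wild type (5.88% and 5.85% of all genes). Dnmt1 was at 30.0, 29.5 and 29.9 CPM in heterozygous libraries, against 28.2, 24.1 and 29.3 CPM in wild type libraries. Zfp445 was at 287, 286 and 287 CPM in heterozygous libraries, against 282, 247 and 266 CPM in wild type libraries. Their log2 differences were 0.13 and 0.11, with edgeR adjusted p of 0.873 and 0.872.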

How the data were processed

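Polyadenylated RNA of adult mouse cortex was counted in 6 libraries, with groups taken from the genotype label (3 heterozygous for Setd5, 3 wild type). Per the labels' protocols, extraction used Trizol, DNase I digestion followed, and libraries were made with a TruSeq RNA v2 kit, which does not mark strand. The deposited values are raw counts per gene, 1 table per library. The submitters' processing notes name DESeq2, featureCounts, Bowtie2 2.3.4.3 and FastQC, and the builds mm10 and GRCm38.p6; strand and multi-mapping settings were not found there.

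Genes were kept by filterByExpr (minimum count 10, minimum total 15), scaled by TMM and tested with glmQLFit and glmQLFTest of edgeR 4.0.16 (R 4.3.3), with p-values adjusted by Benjamini-Hochberg over 27939 genes at a threshold of 0.05. The script was tested on simulated data. DESeq2 1.42.0 and limma 3.58.1 served as alternatives. CPM use effective library sizes, and levels between genes are per kb of merged exons. Ratios of neighbouring members were compared by two-sided exact permutation tests. No 2 libraries agreed within sampling noise.

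The members and lists were chosen with earlier results of these data known. Values per library are given for members with an unadjusted p under 0.05, members whose groups do not overlap, the most abundant member of each locus with several, and pairs of members whose exons overlap each other. Rian, Mirg, Nnat, Peg10, H19 and Zdbf2 were added after their values were seen. Of the other lists, members with an unadjusted p under 0.05 and overlapping hosts are named; those whose groups do not overlap were added after their values were seen. Settings tried were other scalings, filters and tests, each library left out in turn, libraries with Xist above 10 CPM left out, and counts of overlapping members summed. Sequences come from RefSeq tables of GRCm38.p6.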

Additional observations from a re-analysis of the deposited data

How the results depend on the processing

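No setting called any of the 40 members, the other imprinted genes or the imprint regulators, and the smallest adjusted p of a member over all alternatives was 0.164, for Nespas in DESeq2. Over all genes edgeR's quasi-likelihood test called 0 (1628 at an unadjusted p under 0.05), edgeR with no filter beyond 1 count called 6, DESeq2 62, the likelihood ratio test 29, limma-voom with quality weights 2, and leaving out 1 library 0 to 2, the 2 without wild type replicate 2. Setd5 passed in 4 of these, with log2 differences of -0.57 with every gene counted (adjusted p = 0.0119), -0.57 in DESeq2 (adjusted p = 3.08e-07), -0.60 in limma-voom with quality weights (adjusted p = 0.0307) and -0.56 in the likelihood ratio test (adjusted p = 7.31e-05). Of the 38 tested members 21 kept their sign whichever library was left out. The log2 difference of the other 17 ran over 0: Meg3 from -0.0041 to 0.30, Rian from -0.26 to 0.044, Dlk1 from -0.34 to 0.75, Rtl1 from -0.21 to 0.18, Usp29 from -0.029 to 0.17, Sgce from -0.066 to 0.11, Asb4 from -0.76 to 0.040, Mest from -0.086 to 0.058, Copg2 from -0.027 to 0.026, Nnat from -0.50 to 0.015, Slc22a18 from -0.19 to 0.46, H19 from -0.20 to 0.88, Plagl1 from -0.030 to 0.15, Ddc from -0.064 to 0.21, Impact from -0.014 to 0.084, Peg13 from -0.057 to 0.23 and Trappc9 from -0.061 to 0.031. The median of paternal members ran from -0.029 to 0.044 over these fits. Without the 2 libraries with high Xist the sign turned for Zim1 (0.012), Sgce (0.079), Asb4 (0.068), Copg2 (0.014), Slc22a18 (-0.11), Plagl1 (-0.059) and Trappc9 (0.047). In limma-voom it turned for Rtl1 (0.010) and Sgce (0.00072), and with quality weights for Sgce (0.050), Copg2 (0.019) and Trappc9 (0.017). With Meg3, Rian and Mirg summed the log2 difference was 0.11, on the other side of 0 from Rian alone. The causes were not tested. The sum with Gm38393 and the settings for the ratios were chosen after seeing the data. No paired analysis was possible because the labels give no replicate numbers shared by the groups. Members under 1 CPM had the widest standard errors, and counting error was not separated there from the spread between libraries.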

Other observations

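Genes that are no members but lie between the outer members of 3 loci are given as values chosen after they were seen. The numbers of tested genes below also count the members of each interval. At an unadjusted p under 0.05 in edgeR's test there were 1 of 37 tested genes from Ube3a to Mkrn3, 3 of 17 from Calcr to Asb4 and 3 of 20 from H19 to Phlda2, where 5.83% of all genes were. The groups overlapped for 3 of these 7 genes, Col1a2, Gm49394 and Igf2, and did not for the other 4. Among all genes tested 11.7% had groups that do not overlap. The 7 genes were picked by a small p in the same comparison, so these shares cannot be compared. Igf2 and Gm49394 had nearly the same counts in every library (4655 and 4577 in heterozygous replicate 1), so they may not be independent. Col1a2 is on the list of meningeal markers. Trpm5, a cation channel gene of the H19 to Phlda2 interval on chromosome 7, was at 1.33, 1.41 and 1.51 CPM in heterozygous libraries, against 0.923, 0.921 and 0.930 CPM in wild type libraries (log2 difference 0.61, SE 0.18, edgeR adjusted p = 0.797). In the Calcr to Asb4 interval on chromosome 6, Gm44250, an unclassified transcript, was at 2.67, 2.62 and 2.81 CPM in heterozygous libraries, against 4.35, 3.93 and 3.73 CPM in wild type libraries (log2 difference -0.57, SE 0.13, edgeR adjusted p = 0.72). Gm44424, another unclassified transcript there, was under 0.2 CPM in every library (log2 difference -1.30, SE 0.50, edgeR adjusted p = 0.838). In the Ube3a to Mkrn3 interval, the snoRNA gene Gm26498 had 49, 32 and 57 counts in heterozygous libraries, against 19, 29 and 26 counts in wild type libraries (log2 difference 0.87, SE 0.33, edgeR adjusted p = 0.838).

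Of the 6 other imprinted genes whose groups did not overlap, Klf14 is described above. Dio3, the paternally expressed deiodinase gene at the far end of the Dlk1-Dio3 locus, was at 0.218, 0.340 and 0.352 CPM in heterozygous libraries, against 0.485, 0.404 and 0.635 CPM in wild type libraries (log2 difference -0.75, SE 0.34, edgeR adjusted p = 0.855). Sfmbt2, a Polycomb-related gene, was at 3.02, 2.44 and 3.57 CPM in heterozygous libraries, against 3.75, 3.73 and 3.64 CPM in wild type libraries. Peg12, of the Snrpn-Ube3a locus, was at 0.479, 0.509 and 0.736 CPM in heterozygous libraries, against 0.390, 0.382 and 0.386 CPM in wild type libraries. Ascl2, a transcription factor gene, was at 0.152, 0.243 and 0.143 CPM in heterozygous libraries, against 0.0710, 0.112 and 0.0907 CPM in wild type libraries. Tssc4 was at 21.6, 22.05 and 24.5 CPM in heterozygous libraries, against 20.7, 20.2 and 21.5 CPM in wild type libraries. Across these 6 genes none passed edgeR's test, and for each of them except Klf14 the groups came within 0.1 CPM of each other. A gap of that size weighs more beside the levels of Dio3, Peg12 and Ascl2, under 1 CPM in every library, than beside that of Tssc4. Non-overlapping groups were found for 5.88% of all genes with heterozygous above wild type and for 5.85% below.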
